A study of Mus musculus with 8 samples.

Results

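The immediate early transcription factors described here are 10 genes: the AP-1 subunits Fos, Fosl2, Jun, Junb and Jund, the stress and growth factors Atf3, Egr1 and Ier2, and the orphan nuclear receptors Nr4a1 and Nr4a3. They were taken by name, as all probe sets with 1 of these symbols as their single gene. This gave 15 of the 45101 probe sets and 10 of the 18193 genes on the array. Transcripts were measured in whole mouse gastrocnemius, the large calf muscle, on a C57/Bl6J background, with 1 Affymetrix array per sample. The 4 control samples were labelled wild type. The 4 GR_KO samples were labelled as knockouts of the glucocorticoid receptor (the gene Nr3c1) and came from mice whose line is written GR(i)skm-/-, a name used in this field for an inducible loss of the receptor in skeletal muscle fibres. The driver of the deletion, any inducing agent, and the age and sex of the mice are not stated in the labels or design text. The labels give no treatment for either group.

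Immediate early genes are transcribed within minutes of a stimulus from factors already present in the cell, mainly through MAP kinases acting on serum response factor with its ternary complex partners, and through CREB. Fos and Jun proteins pair through leucine zippers to form AP-1, Egr1 binds GC-rich sites through zinc fingers, and Nr4a receptors act without a known hormone. In skeletal muscle several of these genes respond to contraction and stretch, and the glucocorticoid receptor is known in other settings to restrain AP-1 by binding to it.

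In the RefSeq promoter table (build GRCm38.p6, 250 bases before to 50 after 1 start of each gene, which for Nr4a1 and Nr4a3 is not the outermost start in the RefSeq gene table) 8 of the 10 genes had a window, all but Egr1 and Ier2. Both strands were searched for letters bound by the factors named above. The CREB half-site TGACG, which reads CGTCA on the other strand, was in 5 of the 8 windows (Fos, Junb, Atf3, Nr4a1 and Nr4a3), against 20.8% of all 32851 promoters. The full CREB site TGACGTCA, which contains the half-site (1.79% of all promoters), the AP-1 site TGANTCA (7.81%), the serum response CArG box (1.63%), the Nr4a site AAAGGTCA (1.51%) and the glucocorticoid receptor half-site TGTTCT (19.0%) were each in 0 of the 8. The Egr site GCGNGGGCG, found in 5.55% of all promoters, was in 2, those of Fosl2 and Nr4a1. The shares over all promoters were not matched for base composition, and the 8 windows ranged from 46.7% (Jund) to 72.3% (Nr4a1) GC. Below are the windows of Fos, whose product is the defining partner of Jun in AP-1, and of the receptors Nr4a1 and Nr4a3. The estimated differences of these receptors between the groups had opposite signs, and neither passed the test given further on. Capitals mark TGACG or CGTCA.
Fos, chr12:85473640-85473939, plus strand: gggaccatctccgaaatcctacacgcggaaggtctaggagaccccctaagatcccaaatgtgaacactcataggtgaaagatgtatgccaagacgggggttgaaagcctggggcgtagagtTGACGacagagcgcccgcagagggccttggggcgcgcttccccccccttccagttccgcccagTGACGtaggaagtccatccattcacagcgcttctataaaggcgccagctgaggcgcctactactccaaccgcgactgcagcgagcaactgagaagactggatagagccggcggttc
Nr4a1, chr15:101266596-101266895, plus strand: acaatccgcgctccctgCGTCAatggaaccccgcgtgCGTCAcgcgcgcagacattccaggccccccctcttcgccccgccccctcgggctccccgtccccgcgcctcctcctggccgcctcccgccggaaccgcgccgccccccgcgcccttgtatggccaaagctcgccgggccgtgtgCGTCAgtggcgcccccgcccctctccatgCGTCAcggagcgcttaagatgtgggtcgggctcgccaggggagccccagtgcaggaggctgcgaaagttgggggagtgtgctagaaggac
Nr4a3, chr4:48045055-48045354, plus strand: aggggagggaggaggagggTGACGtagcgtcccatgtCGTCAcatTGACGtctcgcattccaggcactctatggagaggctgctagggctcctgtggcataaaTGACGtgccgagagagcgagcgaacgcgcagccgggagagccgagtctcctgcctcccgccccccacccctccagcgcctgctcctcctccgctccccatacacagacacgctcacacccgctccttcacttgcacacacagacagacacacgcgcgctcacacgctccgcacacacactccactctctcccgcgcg
In Fos the half-sites began 129 and 66 bases before the window's start site. Nr4a1 and Nr4a3 each held 4 of them. A match describes these letters in this window and says nothing of binding. The absence of a match says nothing of sites outside the window, and Egr1 and Ier2 were not searched.

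Values are MAS5 signals on a linear scale. The mean of every array, computed here after trimming 2% at each end, lay between 99.960 and 99.964. The number of arrays, 4 per group, limits the precision of all values below. Signals of different probe sets were compared only to pick the brightest of each gene and to leave out dim ones, and were summed within marker lists. The 10 muscle fibre markers, such as Acta1 and Ckm, were all bright enough to test, with 0 of them listed at 0 on any array. The label check held: the Nr3c1 probe set 1460303_at gave 377, 307, 307 and 352 on the control arrays and 134, 79, 76 and 94 on the GR_KO arrays. Its brightest probe set, 1421867_at, gave 289, 213, 287 and 513 against 222, 169, 120 and 105, which overlap. The log2 differences (GR_KO minus control) at its other probe sets were -1.96 (1457635_s_at), -1.34 (1431378_at, dim), -0.38 (1421866_at) and -0.32 (1453860_s_at). Where the probes lie relative to the deleted part is not analysed here. Control replicate 4 stood apart, with spike-in signals 3.16-fold those of the other controls (mean of the 3). The log2 differences of the 10 genes at their brightest probe sets are given or plotted with and without it, as is the count over all genes. Log2 differences of other genes and summed signals of marker lists are given only with it.

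Differences were tested with limma on log2 signals, with each gene at its brightest probe set, and p-values were adjusted over all 11062 genes bright enough to test (mean log2 signal over that of the median probe set, which was at 19.4). The threshold was an adjusted p of 0.05. Differences are GR_KO minus control. None of the 10 genes passed: 0 of 10 were past the threshold, and the smallest adjusted p was 0.880. Over all genes 6 passed, all lower in GR_KO, which is 0.0542%. At an unadjusted p under 0.05 there were 0 of 10 against 4.63% of all genes, and the groups failed to overlap for 0 of 10 against 2.58%. At the level of single probe sets, 12 of the 15 were above the signal filter and 0 of these passed, against 0.0222% of the 22518 probe sets tested. The count of 6 over all genes changed when single arrays were left out. In limma it was 0 when either of control replicates 1 and 3 was dropped (389 and 510 genes with unadjusted p under 0.05), and also 0 when GR_KO replicate 2 or 4 was dropped (329 and 350 genes). Dropping control replicate 2 gave 3, and dropping GR_KO replicate 3 gave 2. Without control replicate 4 the count was 4, and without GR_KO replicate 1 it was 5.

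Of the 10 genes, 7 had a log2 difference below 0, where 47.8% of all genes did. The median of the 10 was -0.12, against 0.01 over all genes. The median lay between -0.20 without GR_KO replicate 3 and -0.03 without GR_KO replicate 2. The median size of the difference, whatever its sign, was 0.23 for the 10 genes and 0.16 for all genes tested. The 10 genes were also more spread within groups than most: the median residual SD on the log2 scale was 0.38 against 0.29 for all genes, and 7 of the 10 lay above that median.

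**Figure D1:**
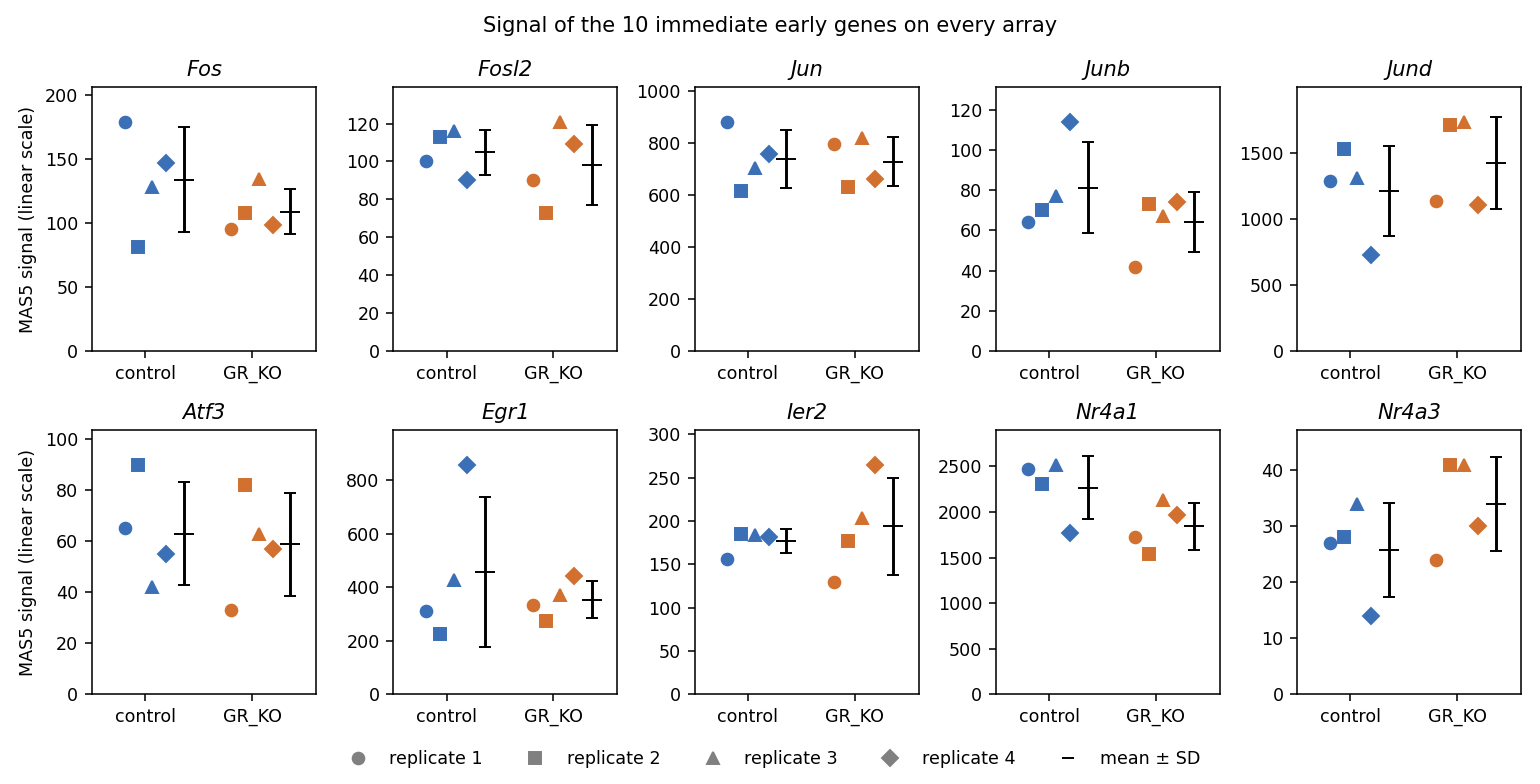
Signal of each gene (MAS5, linear scale from 0) on the 4 control and 4 GR_KO arrays, at the brightest probe set of the gene; bars to the right of each group are mean ± SD. The groups overlap in all 10 panels, and control replicate 4 (blue diamond) is the highest array for Egr1 (858) and Junb (114) and the lowest for Jund (724) and Nr4a3 (14).

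Fos, the partner that gives AP-1 its strongest transcriptional activity, had control signals of 179, 81, 128 and 147 and GR_KO signals of 95, 108, 134 and 98. The lowest and the highest of all 8 signals were both control arrays, so the GR_KO values lay inside the control range. The mean was 134 ± 41.0 in control and 109 ± 17.7 in GR_KO muscle (SD, n = 4 each), and the log2 difference was -0.25 ± 0.23 (SE; 95% interval -0.77 to 0.26; limma adjusted p = 0.881). It was -0.48 without control replicate 2, the array with the lowest signal (unadjusted p = 0.0317, adjusted p = 0.651 in limma), and -0.10 without the array at the other end of its range.

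Fosl2, a Fos relative with a weaker activation domain, had 2 probe sets above the filter. The brighter, 1437247_at, gave 100, 113, 116 and 90 in control and 90, 73, 121 and 109 in GR_KO muscle, a log2 difference of -0.11 ± 0.19 (SE; limma adjusted p = 0.918). The GR_KO range enclosed the control range. At 1422931_at the signals were 19, 45, 30 and 37 against 37, 46, 17 and 55, with a log2 difference of 0.19 ± 0.40 (SE). The probe sets thus differed in sign, each by less than its error.

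Jun, which can pair with itself as well as with Fos proteins, gave the narrowest interval among the AP-1 subunits. Signals at 1417409_at were 882, 614, 705 and 756 in control and 797, 631, 818 and 662 in GR_KO muscle, with means of 739 ± 112 and 727 ± 94.2 (SD, n = 4). The GR_KO signals all lay inside the control range. The log2 difference was -0.02 ± 0.15 (SE), with a 95% interval from -0.35 to 0.31, or from 0.782-fold to 1.24-fold of control (limma adjusted p = 0.985). The probe set 1448694_at, on the same transcript, gave -0.06 ± 0.19 (SE), from signals of 177 to 233 in control and 146 to 252 in GR_KO muscle.

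Junb, known in mouse muscle for supporting fibre size, had control signals of 64, 70, 77 and 114 and GR_KO signals of 42, 73, 67 and 74. The highest array was control replicate 4 and the lowest GR_KO replicate 1, while the other 6 arrays lay between 64 and 77. The log2 difference was -0.34 ± 0.24 (SE; 95% interval -0.88 to 0.19; limma adjusted p = 0.880). Without control replicate 4 it was -0.17, and without GR_KO replicate 1 it was -0.15.

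Jund is the AP-1 subunit that cells express steadily, with little need of a stimulus. At 1449117_at the control signals were 1290, 1528, 1307 and 724 and the GR_KO signals 1134, 1712, 1737 and 1106. The 2 highest arrays were both GR_KO, and the lowest was control replicate 4. With all arrays the log2 difference was 0.25 ± 0.24 (SE; limma adjusted p = 0.881), and it was 0.02 without control replicate 4. The probe set 1440265_at was below the filter, with signals from 3 to 20 on the 8 arrays.

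**Figure D2:**
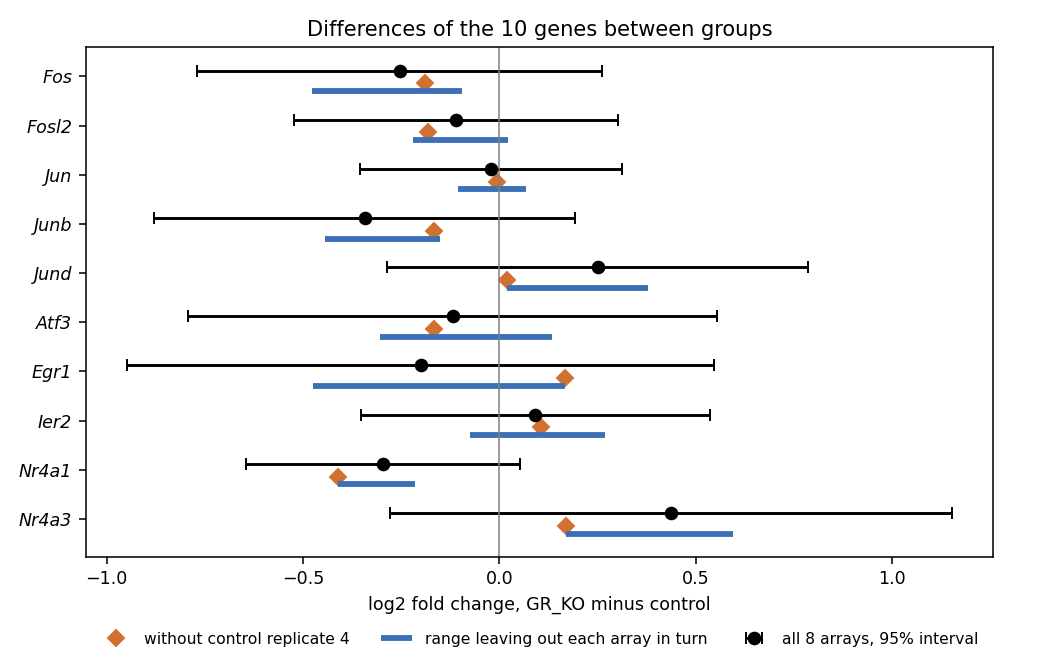
Log2 differences (GR_KO minus control) of the 10 genes: black points with 95% intervals from limma over all 8 arrays, orange diamonds without control replicate 4, and blue bars the range when each array is left out in turn. Every interval includes 0; the interval of Nr4a1 (-0.64 to 0.05) comes nearest to leaving it out, and Egr1 lies at -0.20 with and 0.17 without control replicate 4.

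Atf3, a repressor of the ATF and CREB family that cellular stress induces, had control signals of 65, 90, 42 and 55 and GR_KO signals of 33, 82, 63 and 57. The groups overlapped over most of their range, and the log2 estimate was -0.12 ± 0.31 (SE; 95% interval -0.79 to 0.55; limma adjusted p = 0.944), and its sign was positive without control replicate 2 (0.07) or without GR_KO replicate 1 (0.13).

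Egr1, a zinc finger activator that growth factors and stretch induce, varied most of the 10 genes within groups. The arrays gave 310, 226, 428 and 858 for controls and 332, 273, 369 and 441 for GR_KO muscle. Control replicate 4 was 2.76-fold the geometric mean of the other 3 controls, and the GR_KO signals lay among those 3 controls or just above them. The residual SD of 0.62 on the log2 scale was at percentile 92.4 of all genes tested. The log2 difference was -0.20 ± 0.34 (SE; limma adjusted p = 0.918) with all arrays and 0.17 without control replicate 4.

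Ier2, a nuclear protein induced alongside Fos, had control signals of 156, 185, 184 and 181 and GR_KO signals of 130, 177, 203 and 265. The controls lay close together, and the GR_KO arrays reached both below and above them. The SD on the log2 scale was 0.12 among controls and 0.43 among GR_KO arrays, a difference in spread that was not tested. The mean log2 difference was 0.09 ± 0.20 (SE; 95% interval -0.35 to 0.54; limma adjusted p = 0.936), and it was -0.07 without GR_KO replicate 4.

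Nr4a1, an orphan receptor that in rodent muscle promotes the expression of genes of glucose use, had the smallest p of the 10 genes. At its only probe set, 1416505_at, controls gave 2469, 2308, 2520 and 1770 against 1729, 1542, 2133 and 1968 in GR_KO muscle. Controls 1 to 3 lay above all 4 GR_KO arrays, and control replicate 4 lay among them. The mean was 2267 ± 343 in control and 1843 ± 260.3 in GR_KO muscle (SD, n = 4). The log2 difference was -0.30 ± 0.16 (SE), with a 95% interval from -0.64 to 0.05, and did not pass (unadjusted p = 0.0883, adjusted p = 0.880 in limma). It stood at rank 975 of the 11062 genes by p. Without control replicate 4 the log2 difference was -0.41 (unadjusted p = 0.0139, adjusted p = 0.980 in limma). Over all alternatives run it stayed between -0.41 and -0.21 and never passed the adjusted threshold.

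Nr4a3, its close relative, gave an estimate of the opposite sign. At 1438796_at the control signals were 27, 28, 34 and 14 and the GR_KO signals 24, 41, 41 and 30. The groups overlapped, with control replicate 4 lowest of all 8. Its log2 difference was 0.44 ± 0.33 (SE; 95% interval -0.28 to 1.15; limma adjusted p = 0.880), and 0.17 without control replicate 4. The other probe sets, 1421079_at and 1421080_at, were below the filter, with signals from 1 to 18 and from 5 to 14. At such signals MAS5 values are noisy, and the log2 differences of -0.46 ± 1.06 and 0.01 ± 0.50 (SE) bound little.

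The third receptor of the family, Nr4a2, was looked at after its values were seen. Its brightest probe set gave 45, 44, 7 and 50 in control and 79, 61, 53 and 44 in GR_KO muscle, and a log2 difference of 1.005 ± 0.55 (SE; 95% interval -0.20 to 2.21; limma adjusted p = 0.880). Control replicate 3, at 7, lay far below the other 7 arrays. The other probe sets of Nr4a2 above the filter gave log2 differences of 0.29 and -0.05.

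**Figure D3:**
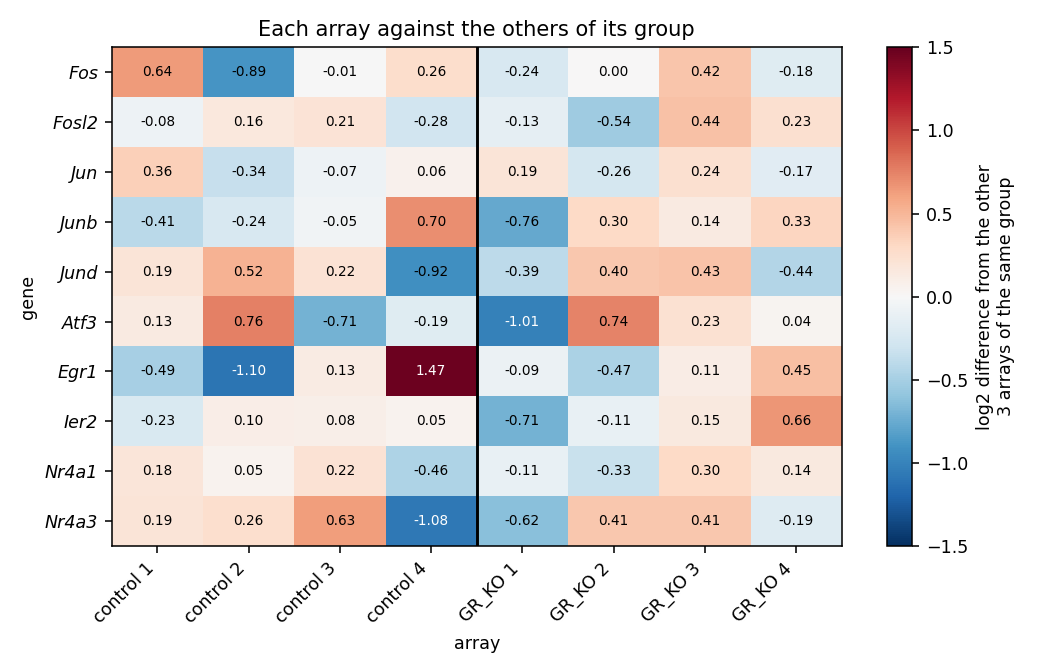
Log2 difference of each array from the mean of the other 3 arrays of its group, for the 10 genes (rows) and 8 arrays (columns; red higher, blue lower). Control replicate 4 ranges from 1.47 for Egr1 to -1.08 for Nr4a3, and GR_KO replicate 3 is above the others of its group in all 10 rows, by 0.11 to 0.44.

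The highest signals of the 10 genes fell on 7 of the 8 arrays and the lowest on 4. GR_KO replicate 3 lay above the mean of the other GR_KO arrays for all 10 genes, by 0.11 for Egr1 to 0.44 for Fosl2 on the log2 scale, and the median difference between the groups was -0.20 without it and -0.12 with it. GR_KO replicate 1 lay below the others of its group for 9 of the 10, all but Jun, and each of the other 6 arrays lay above for 5 or 6 of them. Control replicate 4 was highest for Egr1 and Junb and lowest for Jund and Nr4a3. GR_KO replicate 1 was lowest for Junb, Atf3 and Ier2, and control replicate 2 was lowest for Fos, Jun and Egr1. The largest ratio of highest to lowest array was 3.80 for Egr1 and the smallest 1.44 for Jun. By residual SD, Egr1, Atf3 (percentile 86.2 of all genes tested) and Nr4a3 (83.3) varied most, and Jun (23.6) and Nr4a1 (29.2) least. Among the other 11052 genes, those most like the mean profile of the 10, with group means removed, were Tollip, Emid1, Pex16, Elof1, Zfp777 and Slc25a35, with Pearson r from 0.953 to 0.976. This likeness rests on 8 arrays and is a description only.

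Among 20 relatives of the 10 genes, 19 had a probe set and 13 were tested, and 0 passed. The 6 left out as dim, Fosb, Fosl1 and Egr2 among them, did not exceed a signal of 48 on any array. Jdp2, a leucine zipper protein that pairs with Jun and represses AP-1 targets, gave 47, 62, 60 and 46 in control and 77, 79, 93 and 88 in GR_KO muscle. All 4 GR_KO arrays lay above the controls, and the log2 difference was 0.66 ± 0.18 (SE; limma adjusted p = 0.777). Ier3, which modulates survival and ERK signalling, went the other way by estimate, with 98, 111, 126 and 116 against 61, 51, 73 and 92. Its groups did not overlap either, where 2.58% of all genes had no overlap, and the log2 difference was -0.73 ± 0.20 (SE; limma adjusted p = 0.777). For Ier5l it was 0.47 ± 0.19 (SE; limma adjusted p = 0.880). Jdp2, Ier3 and Ier5l were the 3 of the 13 with an unadjusted p under 0.05, where all genes had 4.63%. The median of the 13 was 0.01.

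Of 25 other immediate early genes 24 were tested. None passed, and 16 lay below 0 and 8 above, where 47.8% of all genes lay below 0. The median log2 difference was -0.14, against 0.01 over all genes. An unadjusted p under 0.05 in limma was seen for 4, against 4.63% of all genes. Gadd45g, a stress sensor that activates MAP kinase cascades, gave 318, 229, 292 and 516 in control and 99, 137, 190 and 158 in GR_KO muscle. Its groups did not overlap, as for 2.58% of all genes, and the log2 difference was -1.19 ± 0.26 (SE; limma adjusted p = 0.458). Ifrd1, a co-regulator that acts in muscle regeneration, had -1.02 ± 0.28 (SE; limma adjusted p = 0.777), with GR_KO replicate 1 at 229 and the other GR_KO arrays from 103 to 121. Ccn1, a secreted matrix protein, had -0.60 ± 0.18 (SE; limma adjusted p = 0.850) at its brightest probe set, and -0.64, 0.10 and 0.10 at the others.

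**Figure D4:**
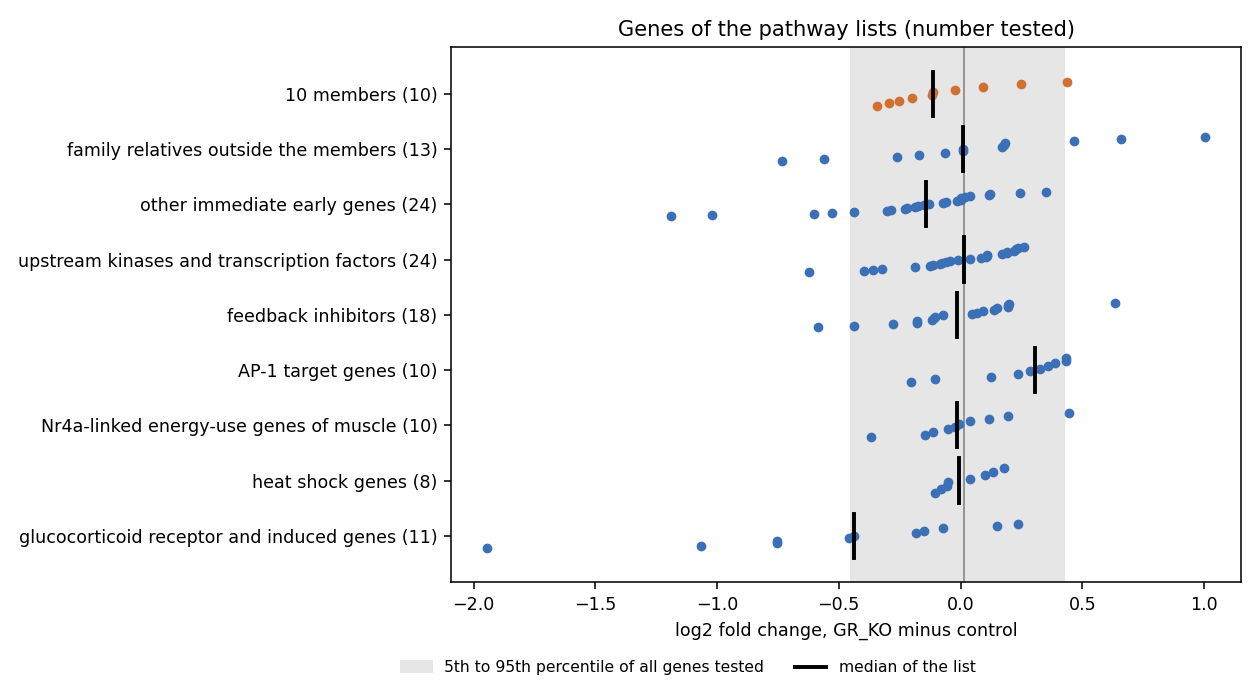
Log2 difference (GR_KO minus control) of every tested gene in each list, with the list's median (black line) and the 5th to 95th percentile of all 11062 genes (grey, -0.45 to 0.42). Of the 10 genes (orange) 9 lie in the grey band and Nr4a3, at 0.44, just outside it; Fkbp5, at -1.95, is the only point past the adjusted threshold.

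Upstream of the immediate early genes, 24 of 29 kinases and transcription factors were tested and 0 passed (0 with an unadjusted p under 0.05 in limma). The median was 0.01, with 12 above and 12 below 0. Map2k1, the kinase that activates ERK, had a log2 difference of -0.36 ± 0.18 (SE), Elk4, a partner of serum response factor, -0.32 ± 0.17, and Rps6ka5, a kinase that phosphorylates CREB, -0.62 ± 0.35, with 0.18 at a further Rps6ka5 probe set above the filter. Their groups overlapped. Of 19 feedback inhibitors 18 were tested and 0 passed (1 with an unadjusted p under 0.05 in limma), with a median of -0.01. Spred1, an inhibitor of Ras signalling, had 0.64 ± 0.25 at its brightest probe set and 0.25 and -0.06 at others above the filter. The MAP kinase phosphatases Dusp4 and Dusp16 had -0.58 ± 0.37 and 0.20 ± 0.15.

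Of 18 genes that AP-1 is known to activate in other cells, 10 were tested and 0 passed (0 with an unadjusted p under 0.05 in limma). Their log2 differences were above 0 for 8 and the median was 0.30. Ccnd1, cyclin D1, gave 159, 161, 164 and 152 in control and 220, 168, 183 and 182 in GR_KO muscle. The groups did not overlap, as for 2.58% of all genes, and the log2 difference was 0.24 ± 0.14 (SE). The other Ccnd1 probe sets had 0.66, also without overlap, and 1.56. For the value of 1.56 the groups overlapped, with 15, 45, 43 and 2 in control and 48, 50, 51 and 36 in GR_KO muscle. The signal of 2, on control replicate 4, is low enough for MAS5 values to be noisy. The matrix proteases Mmp14 and Mmp9 had 0.39 ± 0.25 and 0.43 ± 0.31. Endothelial and fibroblast markers lay higher in GR_KO muscle by estimate on the same arrays. This did not hold for every non-muscle cell type: the medians for macrophages and leukocytes, neutrophils and adipocytes, given below, were under 0. Of 10 endothelial markers 10 had log2 differences above 0 (median 0.40), with summed signals of 3707 to 4714 in control and 4924 to 7045 in GR_KO muscle. Of 10 fibroblast markers 8 were above 0 (median 0.38), with summed signals of 6826 to 12951 and 11580 to 16483. Control replicate 4 had the lowest sum of both lists, and 0 of these markers were listed at 0 or passed the threshold. An unadjusted p under 0.05 in limma was found for 6 of them, against 4.63% of all genes. Their part in the values above was not tested, and in whole muscle more cells of a type cannot be told apart from more RNA per cell.

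The 10 muscle fibre markers all had log2 differences below 0 (median -0.10), with summed signals of 109772 to 243576 in control and 100533 to 157394 in GR_KO muscle, the highest on control replicate 4. Other marker lists, of 2 to 10 tested genes each, had medians of 0.44 for Schwann cells, 0.30 for erythrocytes, 0.22 for smooth muscle and pericytes, 0.01 for satellite cells, -0.06 for macrophages and leukocytes, -0.07 for neutrophils and -0.11 for adipocytes, and 0 of their genes passed (0 with an unadjusted p under 0.05 in limma).

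Among 10 genes of muscle energy use that have been linked to Nr4a receptors, 10 were tested and 0 passed (0 with an unadjusted p under 0.05 in limma), and the median was -0.02. Ucp3, a mitochondrial carrier, had a log2 difference of 0.45 ± 0.22 (SE), with 0.13 at its other probe set, the fatty acid transporter Cd36 had -0.37 ± 0.24, and Prkag3, a subunit of AMP-activated kinase, had 0.19 ± 0.17. For 8 heat shock genes, another early stress response, 0 passed (0 with an unadjusted p under 0.05 in limma) and the median was -0.01. Hspb1 had 0.18 ± 0.20, Hsph1 -0.10 ± 0.14 and Hsp90aa1 0.10 ± 0.15.

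Against these stood the list of the receptor with genes that glucocorticoids induce, which had been put together with earlier results of these arrays known. Of its 11 tested genes 1 passed, Fkbp5, a co-chaperone of steroid receptors. It fell from 345, 225, 375 and 242 in control to 84, 76, 57 and 88 in GR_KO muscle, a log2 difference of -1.95 ± 0.21 (SE; limma adjusted p = 0.0132). Another 4 had an unadjusted p under 0.05 in limma, against 4.63% of all genes. The median was -0.44, and 9 of the 11 lay below 0, where 47.8% of all genes did. Per1, Sgk1 and Dusp1 stand in this list and also in those of immediate early genes or feedback inhibitors. Ddit4, an inhibitor of mTORC1, had -0.75 ± 0.21 (SE; limma adjusted p = 0.850), and Nr3c1 itself -1.07 ± 0.29 (SE; limma adjusted p = 0.777) at its brightest probe set.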

How the data were processed

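The deposited table held MAS5 signal intensities on a linear scale as whole numbers, per the submitters' processing notes, with a version and scaling target not given in the sources used here. No 2 arrays held identical values. Of 45101 probe sets 64 controls were left out, and 34945 had 1 gene symbol, 932 several and 9160 none in the platform annotation. Of those with 1 symbol, 34741 were matched to a RefSeq table by gene identifier and took the symbol given there. Signals were taken as log2 with no pseudocount, values of 0 being set to the array's smallest positive value. Probe sets with a mean log2 signal above the median of all (a signal of 19.4) entered limma 3.58.1 under R 4.3.3 (lmFit, then eBayes with its trend option; two-sided tests; Benjamini-Hochberg adjustment over all genes or, separately, all probe sets), with the group alone in the fit. Probe sets below it were taken from a fit without the filter. Python 3.11.15 handled files and figures. The steps were tested on simulated data.

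The genes, the lists and the tests were chosen with earlier results of these data known. Named genes were all 10 members, the 3 genes of each of 8 lists with the smallest p, Nr3c1 and Fkbp5, and the 6 genes most like the members' mean profile, with predicted transcripts passed over. Whether each sample is a separate animal is not in the labels; p-values here reflect sample spread only, some of which may be technical. Alternatives were quantile normalization, median centring, pseudocounts of 2 and 6, other filters, probe sets averaged per gene, other variance priors, array weights, a replicate block, a spike-in covariate and leaving out each array.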

Additional observations from a re-analysis of the deposited data

Results flagged for a closer look

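In 78 groups of 4 arrays (39 probe sets), 7 held a signal whose gap to its neighbour exceeded Dixon's 95% critical value of 0.829 of the group's range. Scanned were all probe sets of the 10 immediate early genes, and the brightest probe set of Nr3c1, Fkbp5 and each gene named for its p within a list. Genes looked at later, such as Gadd45b, and those picked by likeness were not scanned. Nor was Nr4a2, which was 7 on control replicate 3 against 44 to 50 on the other controls. Chance flags about 1 in 20 groups. Among the 10 immediate early genes, Ier2 was 156 on control replicate 1 against 181 to 185 on the other controls, a narrow group as a whole. The dim Nr4a3 probe set 1421079_at was 15 on GR_KO replicate 1 against 1 to 3 on the other GR_KO arrays. On the same array Ifrd1 was 229 against 103 to 121. On GR_KO replicate 4, Mmp14 was 145 against 109 to 112, and Ucp3 was 701 against 400 to 445. Among controls, Hsph1 was 859 on replicate 1 against 634 to 651, and Hsp90aa1 was 669 on replicate 2 against 590 to 601. The Egr1 signal of 858 on control replicate 4 was below the critical value.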

How the results depend on the processing

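With 8 arrays, differences as small as those of the 10 genes were not detectable: their 95% intervals reached from 0.33 (Jun) to 0.75 (Egr1) on the log2 scale to either side of the estimate. These intervals are not adjusted for the number of genes tested, so they do not give the size needed to pass. Larger differences also failed the adjusted threshold, such as Gadd45g at -1.19 (limma adjusted p = 0.458). Under all 20 alternatives 0 of the members tested passed, as genes or, where fitted, as probe sets, and the smallest adjusted p of a member was 0.504. Of 197 member values 186 kept their sign. Fosl2 was 0.0376 with probe sets averaged, Jun 0.0106 with median centring and Egr1 0.0890 with array weights. Leaving out single arrays gave -0.220 to 0.0228 for Fosl2, -0.106 to 0.0680 for Jun, -0.304 to 0.134 for Atf3, -0.476 to 0.166 for Egr1 and -0.0749 to 0.268 for Ier2. Nr4a1 had an unadjusted p under 0.05 in limma with quantile normalization (-0.34), array weights (-0.35), the spike-in covariate (-0.33) and without control replicate 4.

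The count over all genes, 6, was 0 with no filter (857 at an unadjusted p under 0.05 in limma), 1 with probe sets averaged, 2 without the trend, 10 with array weights and 3 with the spike-in covariate, and 0 to 5 with single arrays left out. Among genes of the pathway lists the count, 1 (Fkbp5), was 0 with no filter, 0 with probe sets averaged and 0 to 1 with single arrays left out. With the replicate block these counts were 1 over all genes and 0 among the lists. Deviations of same-numbered arrays correlated at -0.192, 0.181, 0.111 and -0.395, which cannot show whether the replicate numbers pair the samples. Why the counts moved was not tested beyond the fewer arrays or the changed set of genes in these fits.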

Other observations

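The Gadd45 genes, stress sensors that act on MAP kinases upstream of AP-1, were looked at together after their values were seen. Beside Gadd45g (log2 difference -1.19), Gadd45b had -0.53 (limma unadjusted p = 0.00759, adjusted p = 0.850) and Gadd45a -0.22 (limma adjusted p = 0.885). None passed the threshold. The clock gene Per1, which is both an immediate early gene and induced by glucocorticoids, had -0.44 (limma adjusted p = 0.880), while the growth regulators Myc and Klf4 had 0.02 and 0.35 (limma adjusted p = 0.994 and 0.880).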
